A study of Mus musculus with 54 samples.

Results

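The 10 genes described here encode peptides, other than those of *Avp*, *Vip* and *Prok2*, that neurons of the suprachiasmatic nucleus (SCN), the circadian pacemaker of the hypothalamus, are known to make. They are *Grp*, *Nms*, *Nmu*, *Cck*, *Penk*, *Nts*, *Tac1*, *Cartpt*, *Pdyn* and *Adcyap1*. They were chosen by name, from the rows of the count table whose Ensembl identifier maps to these symbols, and all 10 were among the 30031 genes of that table. RNA was sequenced from SCN tissue of male C3H/HeH mice aged 10 to 12 weeks, taken by laser-capture microdissection at 6 Zeitgeber times (ZT, hours after lights on) of a light/dark cycle, and the study asked which transcripts change over the day. All mice were of this single strain and sex, and every column name of the count table carries the letters WT. The labels name no further allele and no agent, and as far as they say the groups differed only in the time of tissue harvest. Each timepoint, ZT2, ZT6, ZT10, ZT14, ZT18 or ZT22, had 3 biological replicates named A, B and C. Each replicate was a pool of tissue from 5 mice, so variation between single animals was averaged before sequencing.

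The SCN keeps time in many small neurons that release different peptides. Neurons of its ventral part receive input from the retina and include cells that make gastrin-releasing peptide, while other peptides carry timing signals between SCN neurons or out of the nucleus. Peptides are cut from longer precursors inside dense-core vesicles and act on G protein-coupled receptors, so the mRNA of a precursor, of its receptors and of the enzymes that process it are separate measurements.

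Levels are given as CPM, the counts of a gene scaled to a common library size after edgeR's TMM normalization. Between 15412981 and 35820945 reads per replicate were counted on genes. At this depth 3 reads, the upper limit that a count of 0 allows, corresponded to between 0.0825 and 0.183 CPM, which covers counting error only. Every member had reads in all 18 replicates except *Pdyn*, which had none in ZT6 replicate C. All 10 SCN markers on the list used, among them *Six6*, *Lhx1* and *Rgs16*, were detected in every replicate, with a summed level between 2084 and 5889 CPM. Markers of other cells were detected too, with summed levels of 1302 to 6128 CPM for 7 oligodendrocyte genes, 1640 to 5235 CPM for 6 astrocyte genes, 10.6 to 55.6 CPM for 4 ependymal genes and 120 to 427 CPM for 12 peptide and amine markers of neighbouring hypothalamic neurons. In such a bulk sample, fewer cells of a type and less RNA per cell cannot be told apart. In a principal component plot the libraries fell into 3 clusters, 1 of ZT2 and ZT22, 1 of ZT6 and ZT10 and 1 of ZT14 and ZT18, apart from ZT18 replicate C, and the study names both timepoint and sequencing batch for such a plot. ZT18 replicate C, the library with the fewest reads, stood at 23.65 on the first component beside -0.4909 and -2.409 for the other replicates of ZT18, and the library nearest to it on the first 2 components was ZT10 replicate A. Timepoints of different clusters had no cluster in common in the other 17 libraries, so in a step between clusters the timepoint and a batch of that kind cannot be told apart. Without ZT18 replicate C, the members called for time, for cycling and between day and night were the same 6, 5 and 4 genes. ZT14 replicates A and B stood apart in striatal genes. The edgeR tests that rest on them are given with and without them, while mean levels include them. The steps from ZT6 to ZT10, ZT14 to ZT18 and ZT22 to ZT2 lie within a cluster.

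The members differed widely in level. Since reads per gene grow with its length, genes were compared as CPM per kb of exon, averaged over the 18 replicates. *Nms*, *Penk* and *Grp* were the most abundant, at 256, 196 and 112 CPM per kb, above 98.8%, 98.1% and 96.8% of the 15107 protein-coding genes tested. *Cck* followed at 27.3 CPM per kb. The other 6 members lay between 1.95 CPM per kb (*Adcyap1*) and 9.64 CPM per kb (*Tac1*). On the same scale *Vip* stood at 545, *Avp* at 252 and *Prok2* at 40.3 CPM per kb, so *Nms* mRNA was close to *Avp* mRNA in mean level. The order among members depended on the time of day. *Nms* had the highest mean per kb of the 10 at ZT2, ZT6, ZT10 and ZT22, and *Penk* had it at ZT14 and ZT18. The mean of *Penk* at ZT14, 569 ± 405 CPM per kb (SD), rested on replicates A and B, at 750 and 852. In replicate C *Penk* was at 105 CPM per kb beside 72.9 for *Nms*. *Grp* came next after *Nms* at ZT6 and ZT10 and lower at ZT22, where its mean was 26.5 CPM per kb beside 28.2 for *Cck*, a difference smaller than the SD of either (9.66 and 14.8).

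**Figure D1:**
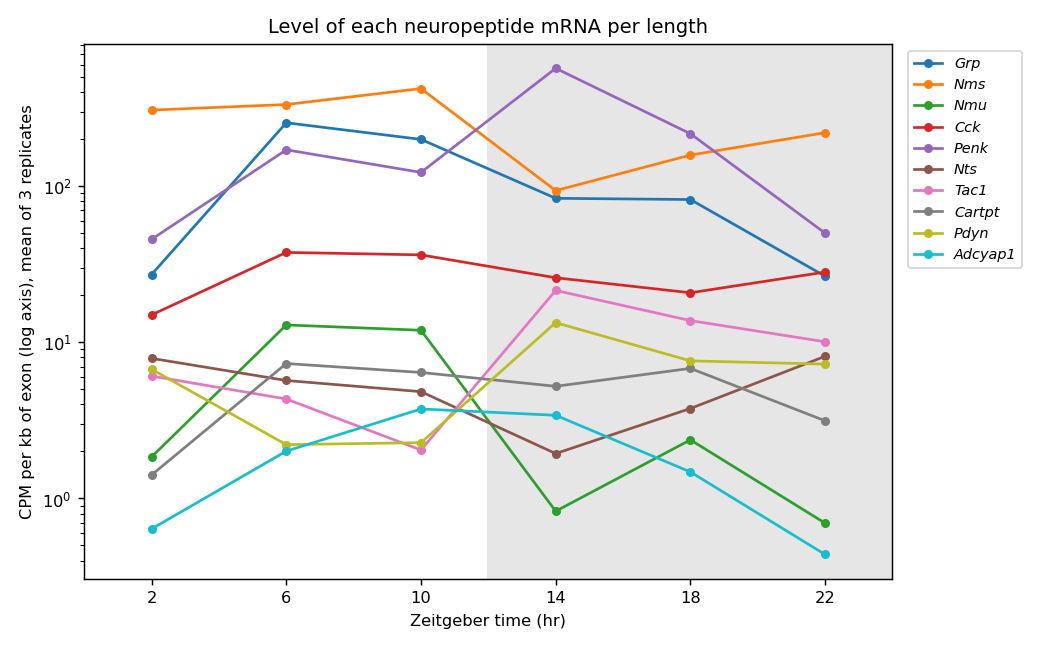
Mean level of each of the 10 peptide mRNAs, in CPM per kb of exon on a log axis, against Zeitgeber time in hr, with the lights-off period in grey. Points are means of 3 replicates. *Nms*, *Penk* and *Grp* run above the other members at most timepoints, and the *Nms* and *Penk* lines cross between ZT10 and ZT14.

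By edgeR's quasi-likelihood test over the 6 timepoints, adjusted after Benjamini and Hochberg and called below 0.05, 6 of the 10 members changed with time. These were *Grp*, *Nms*, *Nmu*, *Cck*, *Penk* and *Adcyap1*. Of all 18941 genes tested, 44.0% passed the same test, so the members' share was not far above that of genes in general. Of the 6, all but *Cck* also passed JTK_CYCLE, a rank test for a 24 hr wave, and 29.9% of all genes passed both. In the contrast of the 9 day replicates (ZT2, ZT6 and ZT10) with the 9 night replicates, 4 members differed, where 23.8% of all genes did. *Grp*, *Nms* and *Nmu* were higher by day, the direction of 9.56% of all genes, and *Tac1* was lower by day, the direction of 14.3%.

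**Figure D2:**
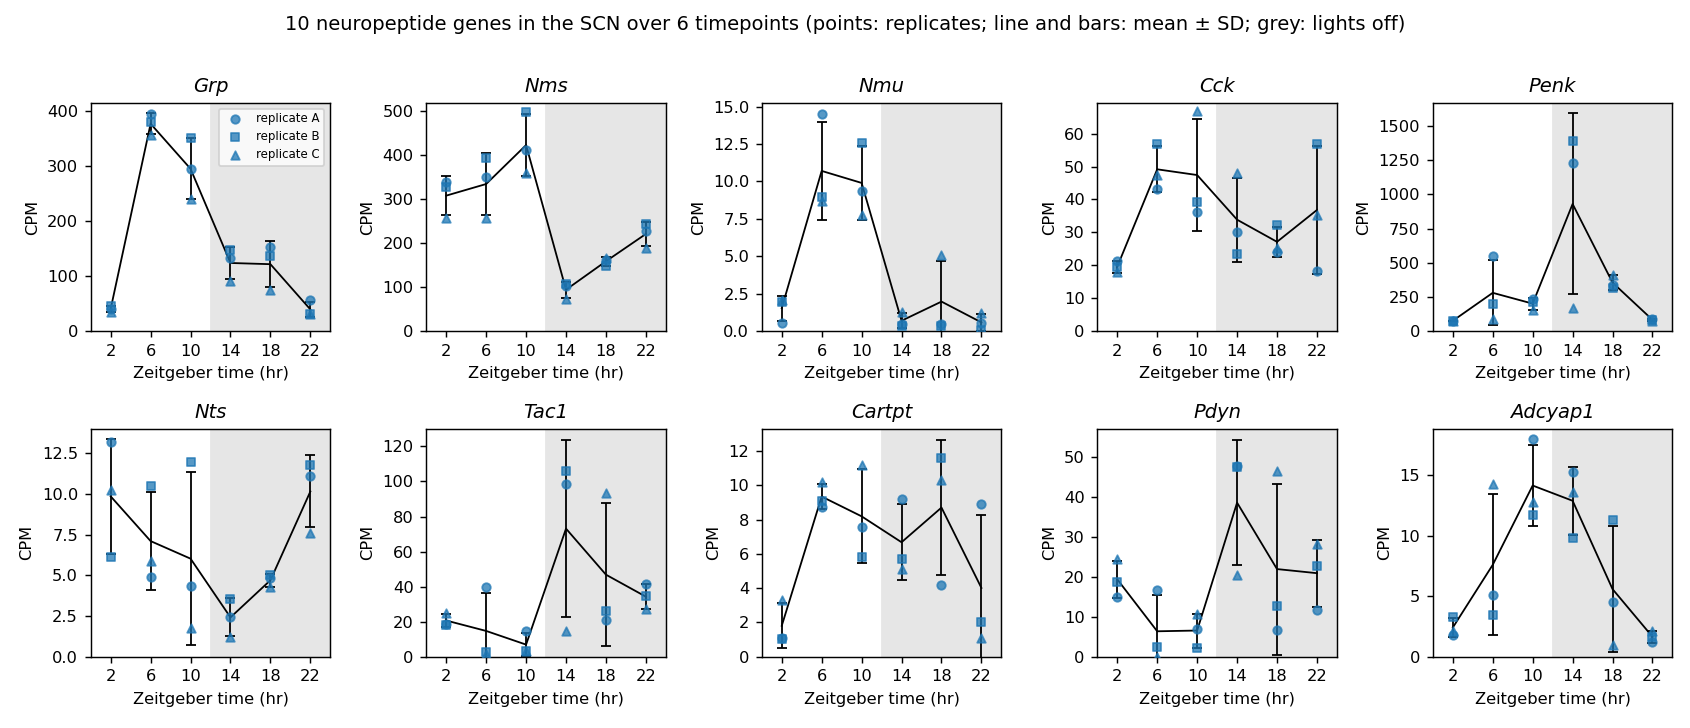
CPM of each member in every replicate (points, with a marker for each of A, B and C) against Zeitgeber time in hr, with the mean and SD of n = 3 as a line and bars and the lights-off period in grey. *Grp*, *Nmu* and *Cck* have their highest mean at ZT6, *Nms* and *Adcyap1* at ZT10, *Penk*, *Tac1* and *Pdyn* at ZT14 and *Nts* at ZT22, and 1 replicate of ZT14 lies far below the other 2 in *Penk* and *Tac1*.

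*Grp* encodes gastrin-releasing peptide, a bombesin-like peptide of ventral SCN neurons. It had the smallest adjusted p for time among the members (1.20e-07). Its level was 40.5, 46.0 and 33.9 CPM in the replicates of ZT2 and 394, 380 and 356 CPM at ZT6. It was 294, 350 and 239 CPM at ZT10, 132, 148 and 90.8 CPM at ZT14, 153, 136 and 74.8 CPM at ZT18 and 55.6, 31.8 and 30.1 CPM at ZT22. The 3 replicates of ZT6 lay above all 15 others, ZT10 came next without overlap with ZT14, and those of ZT2 and ZT22 lay below all others and overlapped each other. The mean at ZT6, 376 ± 19.4 CPM (SD, n = 3), was 9.61 times the mean at ZT22, 39.2 ± 14.3 CPM. *Grp* rose by 3.23 ± 0.29 on the log2 scale (SE) from ZT2 to ZT6 (adjusted p = 3.12e-07), fell by 1.25 ± 0.27 from ZT10 to ZT14 (adjusted p = 0.00404) and fell by 1.63 ± 0.28 from ZT18 to ZT22 (adjusted p = 0.000439). All of these steps cross clusters of libraries. Although *Grp* was called higher by day, with a log2 difference of 0.97 ± 0.16 (adjusted p = 0.000278), the day and night replicates overlapped, with ZT2 as low as ZT22. JTK_CYCLE placed its wave at ZT10 (exact p = 0.00328).

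*Nms* (chr1:38939149-38950276, plus strand, GRCm38) encodes neuromedin S, a peptide named for its expression in the SCN. It was the only member whose day and night replicates did not overlap, with 257 to 497 CPM (median 351) by day and 73.0 to 244 CPM (median 162) by night. The replicates of ZT14, at 102, 106 and 73.0 CPM, lay below all others. The level was higher at each of the next timepoints, at 162, 147 and 167 CPM at ZT18, 228, 244 and 189 CPM at ZT22 and 339, 326 and 257 CPM at ZT2, and the replicates of these neighbours did not overlap. It was 351, 394 and 257 CPM at ZT6 and 411, 497 and 359 CPM at ZT10, so that ZT2, ZT6 and ZT10 overlapped one another. The fall from ZT10 to ZT14 was the change of *Nms* that passed the test among the steps, by 2.17 ± 0.20 on the log2 scale (adjusted p = 2.62e-06). Across all times the mean ranged 4.50-fold, from 93.8 ± 18.1 CPM at ZT14 to 422 ± 69.7 CPM at ZT10 (adjusted p for time = 1.62e-06). The day level exceeded the night level by 1.24 ± 0.11 on the log2 scale (adjusted p = 1.03e-06). The step from ZT14 to ZT18, inside a cluster, was 0.76 ± 0.19 and had an adjusted p of 0.0842 by edgeR, while DESeq2 called it.

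*Nmu* (chr5:76333495-76363788, minus strand) encodes neuromedin U, a relative of neuromedin S that acts on the same receptors. It was a rare transcript, with a median of 45 reads per replicate and a minimum of 1, and was seen mainly at ZT6 and ZT10. The level was 14.5, 8.95 and 8.66 CPM at ZT6 and 9.37, 12.6 and 7.74 CPM at ZT10. It was 0.565, 1.94 and 2.08 CPM at ZT2, 0.446, 0.348 and 1.26 CPM at ZT14, 0.480, 0.353 and 5.07 CPM at ZT18 and 0.507, 0.0367 and 1.18 CPM at ZT22. The replicates of ZT6 and ZT10 overlapped each other and lay above the other 12, of which ZT18 replicate C was the highest. *Nmu* rose by 2.80 ± 0.99 on the log2 scale from ZT2 to ZT6 (adjusted p = 0.0372) and fell by 3.84 ± 1.04 from ZT10 to ZT14 (adjusted p = 0.0162). The difference between day and night was 2.57 ± 0.57 on the log2 scale (adjusted p = 0.00348). An exon of *4930432L08Rik* overlaps *Nmu* on the other strand, and the strand setting of the counting is not given in the sources used here, so reads of the pair cannot be told apart.

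*Cck* (chr9:121489824-121495694, minus strand) encodes cholecystokinin, which is made by a few SCN neurons and by many neurons of the cerebral cortex. It passed the test for time (adjusted p = 0.0339) with the smallest range among the 6 members that did, 2.51-fold from 19.6 ± 1.82 CPM at ZT2 to 49.2 ± 6.94 CPM at ZT6. The level was 21.4, 19.5 and 17.8 CPM at ZT2, 43.2, 56.8 and 47.4 CPM at ZT6 and 36.3, 39.1 and 66.9 CPM at ZT10. At night it was 30.1, 23.3 and 48.1 CPM at ZT14, 23.9, 32.3 and 25.1 CPM at ZT18 and 18.2, 56.8 and 35.4 CPM at ZT22. The rise from ZT2 to ZT6 was 1.33 ± 0.35 on the log2 scale (adjusted p = 0.00715) and separated the replicates, whereas the timepoints of the night overlapped. Markers of telencephalic excitatory neurons varied between the same night libraries. *Neurod6*, a transcription factor of cortical excitatory neurons, was at 22.3, 20.1 and 81.7 CPM at ZT14 and 22.6, 108 and 81.1 CPM at ZT22. Over all 8 telencephalic markers, the summed level was 431 to 640 CPM at ZT14 and 313 to 849 CPM at ZT22, most of it from *Camk2n1*, with 400 CPM in ZT14 replicate C and 598 CPM in ZT22 replicate B. At ZT2, ZT10, ZT14 and ZT22 the library with the highest sum (replicates A, C, C and B) also had the highest *Cck* of its timepoint. At ZT18 the highest sum was in replicate C, with 25.1 CPM of *Cck*, and the highest *Cck* in replicate B, and at ZT6 the highest sum was in replicate A, which had the lowest *Cck* of that timepoint. At ZT6, where the mean of *Cck* was highest, the sum was 211 to 330 CPM and *Neurod6* was at 1.7, 2.1 and 0.0473 CPM. Without ZT14 replicate C and ZT22 replicate B the adjusted p of *Cck* for time was 0.00735. The part of the telencephalic transcripts in the night values of *Cck* was not tested.

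**Figure D3:**
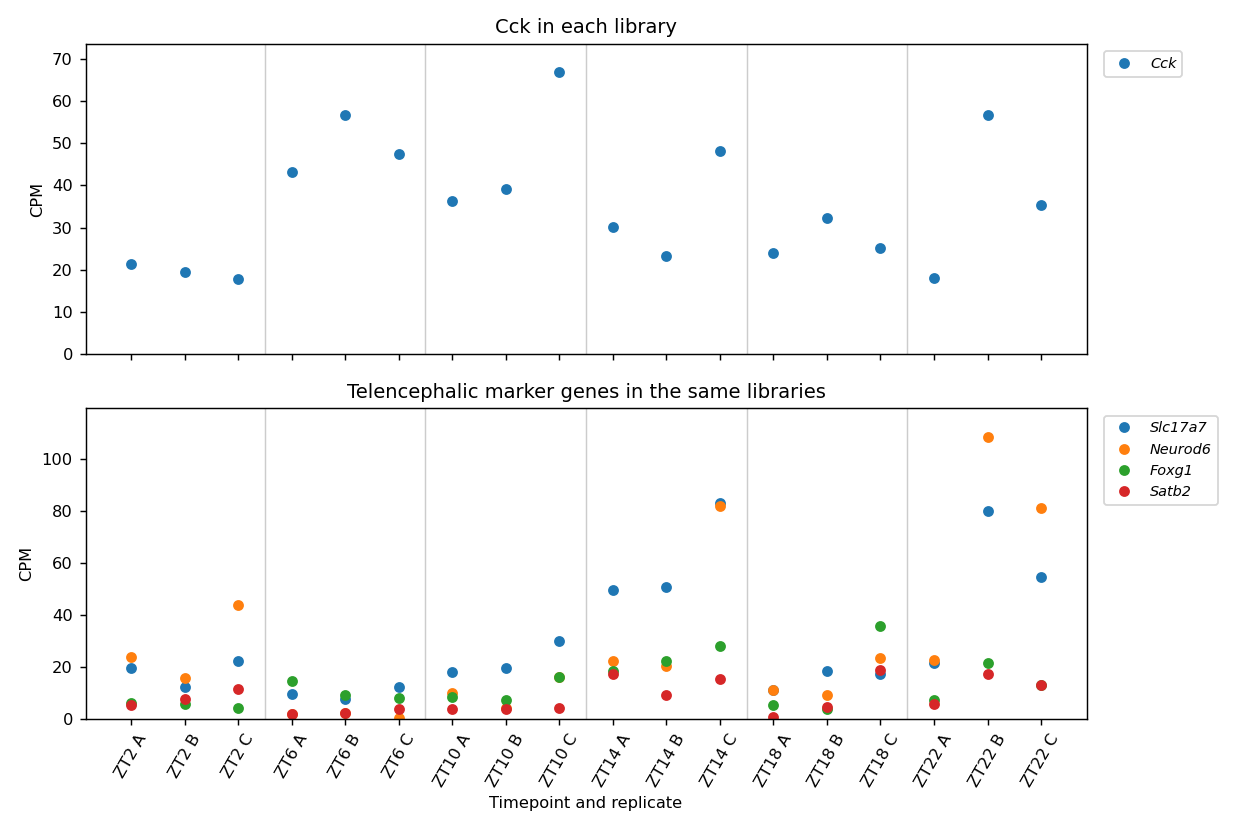
CPM of *Cck* (top) and of 4 telencephalic marker genes (bottom) in each of the 18 libraries, in order of timepoint and replicate, with grey lines between timepoints. Within ZT14 and within ZT22 the library with the highest *Cck* is also the one with the highest *Slc17a7* and *Neurod6*, while the 3 libraries of ZT6 have high *Cck* and low *Slc17a7* and *Neurod6*.

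*Penk* (chr4:4133531-4138819, minus strand) encodes the precursor of the enkephalins, opioid peptides that act on delta and mu receptors. Its level was 73.7, 74.0 and 76.3 CPM at ZT2, 547, 201 and 89.9 CPM at ZT6 and 236, 214 and 151 CPM at ZT10. It was 1226, 1392 and 171 CPM at ZT14, 338, 313 and 413 CPM at ZT18 and 89.9, 79.3 and 76.1 CPM at ZT22. *Penk* was thus low in all replicates of ZT22 and ZT2 and higher at ZT10 and ZT18, while the replicates of ZT6 and of ZT14 differed from one another by several fold. It changed with time (adjusted p = 0.000263), rising by 1.90 ± 0.58 on the log2 scale from ZT2 to ZT6 (adjusted p = 0.0165) and by 2.21 ± 0.58 from ZT10 to ZT14 (adjusted p = 0.0137), and falling from ZT18 to ZT22 with a log2 change of -2.12 ± 0.58 (adjusted p = 0.0163). The contrast of day with night gave a log2 difference of -0.90 ± 0.32 and an adjusted p of 0.0537. Without ZT14 replicates A and B, which left replicate C alone at ZT14, it was -0.04 ± 0.27. Without the 2 libraries high in telencephalic markers, ZT14 replicate C and ZT22 replicate B, it was -1.07 ± 0.26 (adjusted p = 0.00968). That fit left ZT14 with replicates A and B, those with high *Penk*, so it does not bear on the difference apart from them. An exon of *A830012C17Rik* overlaps *Penk* on the other strand, and the reads of this pair cannot be told apart either.

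*Tac1* (chr6:7554879-7565834, plus strand), the precursor of substance P and neurokinin A, and *Pdyn* (chr2:129686565-129699844, minus strand), the precursor of the dynorphins that act on the kappa receptor, had their highest means at the same timepoint as *Penk*. *Tac1* was at 98.3, 106 and 15.0 CPM at ZT14, against 14.6, 3.17 and 3.07 CPM at ZT10 and 39.8, 2.84 and 1.56 CPM at ZT6. It was at 20.8, 26.1 and 93.6 CPM at ZT18, 41.2, 34.5 and 27.1 CPM at ZT22 and 18.8, 18.1 and 25.2 CPM at ZT2. The rise of *Tac1* from ZT10 to ZT14 was 3.40 ± 1.02 on the log2 scale (adjusted p = 0.0281) and its day level was lower than its night level by a log2 difference of -1.93 ± 0.55 (adjusted p = 0.0175), but the test over all 6 timepoints gave an adjusted p of 0.0718. *Pdyn* was at 47.8, 47.6 and 20.5 CPM at ZT14, 6.65, 12.8 and 46.4 CPM at ZT18 and 11.8, 22.7 and 28.3 CPM at ZT22. By day it was at 15.1, 18.7 and 24.4 CPM at ZT2, 16.7, 2.46 and 0 CPM at ZT6 and 6.99, 2.13 and 10.6 CPM at ZT10, where the 0 of ZT6 replicate C allows up to 0.142 CPM. *Pdyn* did not pass the test for time (adjusted p = 0.193) or for day against night (adjusted p = 0.0716). In both genes ZT14 replicates A and B, ZT18 replicate C and, among the day libraries of its cluster, ZT6 replicate A stood high.

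Genes that mark neurons of the striatum were high in ZT14 replicates A and B and, in part, in the other libraries just named. The tested gene whose levels over the 18 replicates were most like those of *Penk* was *Ppp1r1b*, which encodes the striatal phosphoprotein DARPP-32 (Pearson r = 0.935 over 18 replicates that share timepoints), followed by *Pde1b* (r = 0.920) and *Pcp4l1* (r = 0.895). *Ppp1r1b* was at 230, 337 and 20.8 CPM at ZT14, 157, 31.4 and 8.1 CPM at ZT6 and 60.5, 43.4 and 104 CPM at ZT18. *Adora2a*, the adenosine receptor of the striatal neurons that also make enkephalin, was at 32.9, 50.02 and 0.495 CPM at ZT14 and at most 14.0 CPM in any library of another timepoint. Over a list of 8 striatal markers, chosen after these values were seen, the summed level was 1042, 1434 and 182 CPM in the replicates of ZT14 and between 121 and 460 CPM in the other 15 libraries. All 8 were higher in ZT14 replicates A and B than in any other library. In ZT18 replicate C the markers disagreed, with *Ppp1r1b* and *Drd1* the highest of that timepoint but *Rgs9*, at 7.81 CPM beside 41.4 and 37.2, and *Adora2a*, at 1.53 CPM beside 6.62 and 4.66, the lowest. In ZT6 replicate A *Drd2* and *Pde10a* were not the highest of their timepoint. The 2 markers *Adora2a* and *Drd2* had no read in ZT6 replicate C or ZT10 replicate B. The part of striatal transcripts in the values of *Penk*, *Tac1* and *Pdyn* was not tested.

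**Figure D4:**
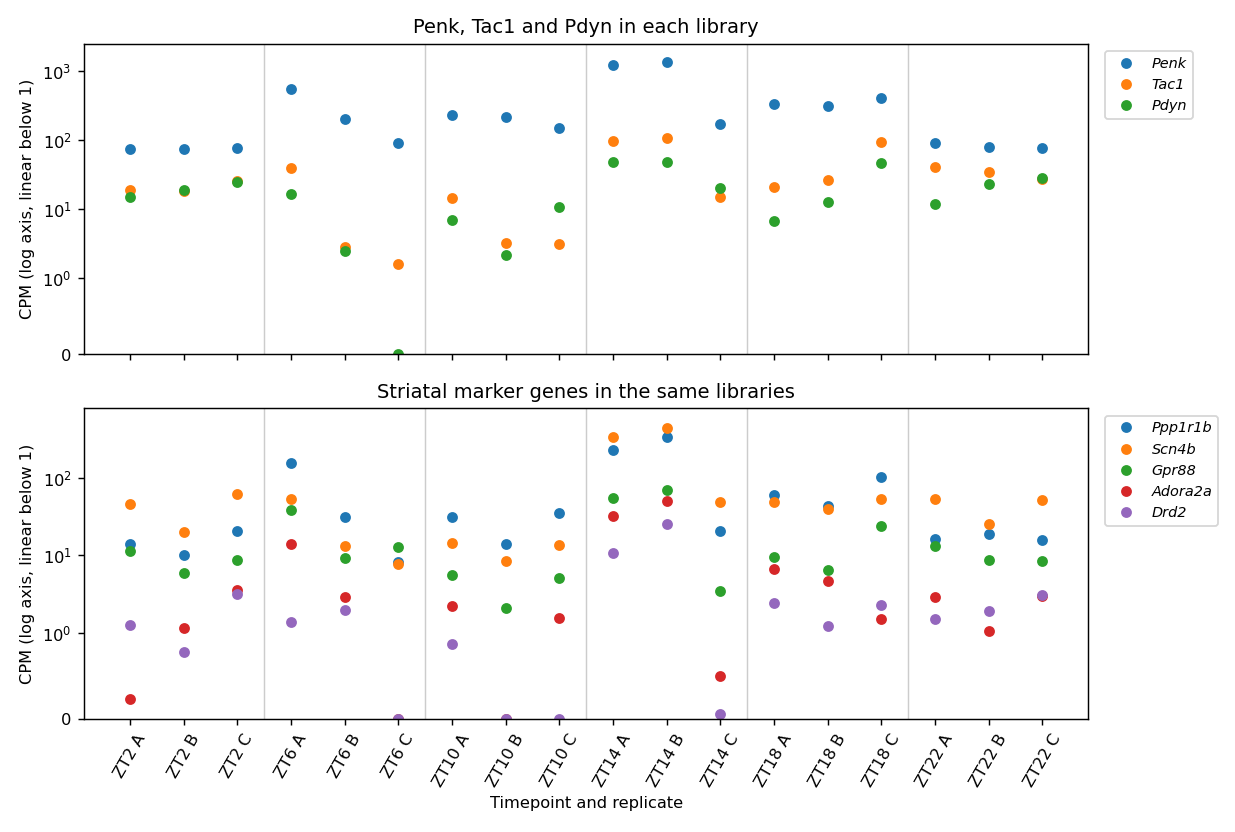
CPM of *Penk*, *Tac1* and *Pdyn* (top) and of 5 striatal marker genes (bottom) in each of the 18 libraries, in order of timepoint and replicate, on an axis that is logarithmic above 1 CPM and linear below. All 8 genes are highest in ZT14 replicates A and B, where *Tac1* and *Pdyn* in ZT18 replicate C, at 93.6 and 46.4 CPM, come close to them, and all 8 drop in ZT14 replicate C.

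When ZT14 replicates A and B were left out, which left ZT14 with 1 replicate assumed to vary like the other groups, *Penk* still changed with time (adjusted p = 0.00232) and still fell from ZT18 to ZT22 (log2 change -2.06 ± 0.43, adjusted p = 0.0034). Its step from ZT10 to ZT14 was then -0.30 ± 0.59 (adjusted p = 0.847), where it had been 2.21, and the step of *Tac1* was 1.04 ± 1.22 (adjusted p = 0.718). *Tac1* no longer passed the test between day and night (adjusted p = 0.207), *Nmu* had a day-to-night difference of 2.30 ± 0.76 there, beside 2.57 with all libraries, and just missed the threshold (adjusted p = 0.0506), and its step from ZT10 to ZT14, -3.04 ± 1.64, no longer passed (adjusted p = 0.335). In that fit 6 members changed with time where 36.7% of all genes did, 2 differed between day and night (*Grp* and *Nms*) where 15.8% did, and 2 fell from ZT10 to ZT14 (*Grp* and *Nms*) where 4.89% of all genes differed.

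*Nts* (chr10:102481756-102490486, minus strand) encodes neurotensin, a peptide of neurons in several hypothalamic nuclei. Its mean was highest at ZT22, at 10.2 ± 2.21 CPM, and lowest at ZT14, at 2.42 ± 1.17 CPM. The replicates were at 11.1, 11.8 and 7.63 CPM at ZT22, 13.2, 6.15 and 10.2 CPM at ZT2, 4.90, 10.5 and 5.92 CPM at ZT6 and 4.37, 12.0 and 1.75 CPM at ZT10. They were at 2.45, 3.57 and 1.24 CPM at ZT14 and 4.83, 5.01 and 4.27 CPM at ZT18, so ZT14 and ZT18 did not overlap each other but ZT10 spanned nearly the whole range. The test for time missed the threshold (adjusted p = 0.0646), whereas JTK_CYCLE alone gave an exact p of 0.00473 with a wave at ZT2. DESeq2 called *Nts* changed with time (adjusted p = 0.00617). The study, which used DESeq2 with JTK_CYCLE, counts *Nts* among its cycling genes and also measured it by qPCR.

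*Cartpt* (chr13:99898489-99901091, minus strand) encodes the CART peptide, and *Adcyap1* (chr17:93199017-93206537, plus strand) encodes PACAP, which is best known in this system as a transmitter of the retinal axons that reach the SCN, whose cell bodies lie in the eye. *Cartpt* was at 1.07, 1.03 and 3.31 CPM at ZT2 and 8.76, 9.09 and 10.2 CPM at ZT6, a rise of 2.36 ± 0.69 on the log2 scale (adjusted p = 0.0129). At the other timepoints its replicates spread from 1.11 to 11.6 CPM, and the test over all timepoints gave an adjusted p of 0.0699. *Adcyap1* was the member with the lowest level per length and changed with time (adjusted p = 0.00424). It was at 18.0, 11.7 and 12.8 CPM at ZT10 and 15.2, 9.78 and 13.6 CPM at ZT14. It was at 1.20, 1.62 and 2.15 CPM at ZT22 and 1.81, 3.27 and 2.16 CPM at ZT2. ZT6, at 5.08, 3.46 and 14.2 CPM, and ZT18, at 4.51, 11.3 and 0.976 CPM, spanned the space between, so the replicates at ZT10 and ZT14 lay above all of those at ZT22 and ZT2 without any neighbouring pair in the order of means being separated. By edgeR none of its 6 steps passed the test, while DESeq2 called the rise from ZT2 to ZT6 and the fall from ZT18 to ZT22, and JTK_CYCLE placed its wave at ZT10 (exact p = 0.000986).

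By step, the members' changes fell at a few times of day. From ZT2 to ZT6, 5 members differed (*Grp*, *Nmu*, *Cck*, *Penk* and *Cartpt*), all of them upward, where 33.8% of all genes differed, 17.5% upward and 16.3% downward. From ZT10 to ZT14, 5 members differed, where 16.8% of all genes did. *Grp*, *Nms* and *Nmu* fell, as 7.52% of all genes did, and *Penk* and *Tac1* rose, as 9.31% did. Lists of marker genes moved at the same steps. The summed level of the 10 SCN markers, which include *Avp*, *Vip* and *Prok2*, was 3306 to 5009 CPM at ZT2, 5257 to 5889 CPM at ZT6, 4440 to 4813 CPM at ZT10 and 2084 to 2569 CPM at ZT14. That of the 7 oligodendrocyte markers was 2164 to 4447 CPM at ZT2, 1302 to 3088 CPM at ZT6, 1658 to 2047 CPM at ZT10 and 4784 to 5990 CPM at ZT14, and it was 5123 to 6128 CPM at ZT18 and 2234 to 3008 CPM at ZT22. *Vip* was the largest part of the SCN sum in every library. *Rorb* moved the other way, at 1033, 1317 and 1006 CPM at ZT2 and 436, 558 and 447 CPM at ZT6. It was at 295, 184 and 293 CPM at ZT10 and 453, 305 and 358 CPM at ZT14. The replicates of *Calb2* overlapped at both steps. The median log2 level over each SCN marker's own median was -0.31 to 0.26 at ZT2 and 0.90 to 1.00 at ZT6. It was 0.47 to 0.58 at ZT10 and -0.41 to -0.06 at ZT14. The part of these shifts in the members' changes was not tested. From ZT18 to ZT22, *Grp* and *Penk* fell, where 18.1% of all genes differed, 6.27% upward and 11.9% downward. In the 3 steps within a cluster, edgeR called 0 members. From ZT6 to ZT10 it called 0.0475% of all genes, and 0 members had an unadjusted p under 0.05, which 10.8% of genes had. From ZT14 to ZT18 it called 0.570% of all genes, and 2 members (*Nms* and *Penk*) had such an unadjusted p, which 13.5% of genes had, while DESeq2 called 1 (*Nms*). From ZT22 to ZT2 it called 0.0317% of all genes, and 2 members (*Nms* and *Cck*) had such an unadjusted p, which 3.59% of genes had, while DESeq2 called 0.

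**Figure D5:**
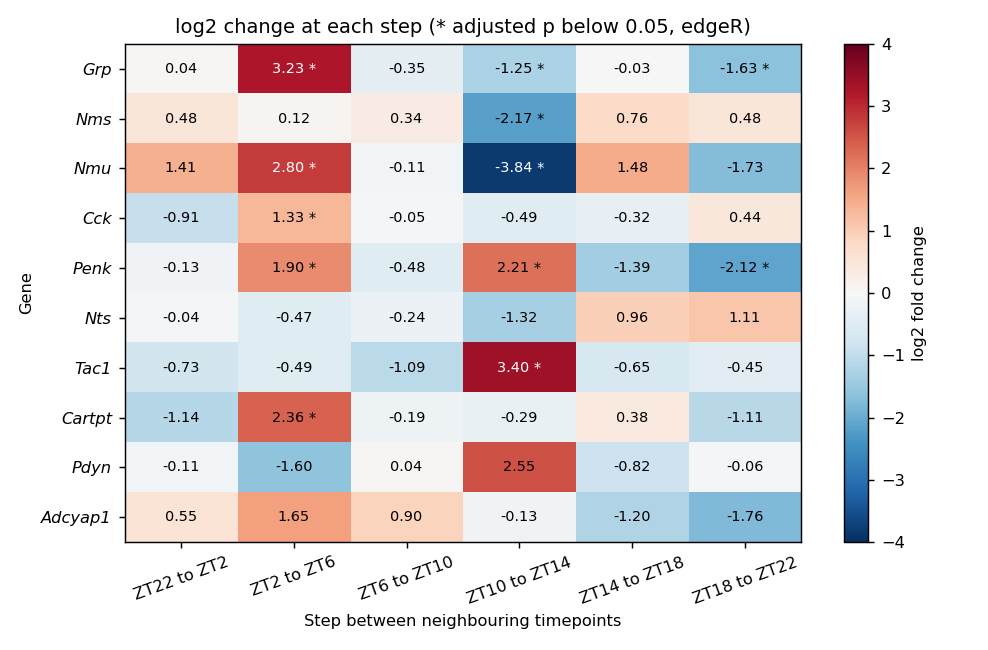
log2 change of each member in each step between neighbouring timepoints, with an asterisk where edgeR's adjusted p is below 0.05. The 12 marked changes all lie in the steps from ZT2 to ZT6, ZT10 to ZT14 and ZT18 to ZT22, which cross clusters of libraries, and *Nmu* has the deepest fall (-3.84) and *Tac1* the steepest rise (3.40), both from ZT10 to ZT14.

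The pattern of each changing member was also set beside 15749 other tested genes whose counts averaged 10 or more. The 3 most like *Grp* were *Frs3*, *Vps37d* and *Hpf1* (Pearson r = 0.972 for each, over 18 replicates that share timepoints and clusters). Those most like *Nms* were *Selenok* (r = 0.970) and the ribosomal protein genes *Rpl7* (r = 0.961) and *Rps9* (r = 0.959). *Rpl7*, for example, had means of 665 CPM at ZT10 and 258 CPM at ZT14. For *Nmu* they were *Cpne2* (r = 0.918), *Gkap1* (r = 0.896) and *Eif3j1* (r = 0.882), for *Cck* they were *Mmd* (r = 0.809), *Tspan17* (r = 0.805) and *Pdia2* (r = 0.803), and for *Adcyap1* they were *Hmg20b* (r = 0.882), *Utp3* (r = 0.881) and *Zfp219* (r = 0.877). *Cck* had the weakest likeness to any gene among the 6.

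Promoter sequence was compared because members rose and fell at different times. RefSeq promoter windows on GRCm38.p6, from 250 bases before to 50 after a start, were found for 8 of the 10 members, with 2 windows each for *Pdyn* and *Adcyap1*. 3 of these members, *Nmu*, *Cck* and *Tac1*, held the E-box CACGTG, the sequence bound by the clock factors CLOCK and BMAL1, which 7.15% of all 32851 windows hold. *Cartpt* held the full cAMP response element TGACGTCA, bound by CREB, which 1.79% of all windows hold. The 30 bases around each match are shown with the match in capitals, each on the strand of its gene and 5′ to 3′.

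*Nmu*, chr5:76363817-76363846, minus strand: gccagcccagccCACGTGtgcgccagattt
*Cck*, chr9:121495743-121495772, minus strand: gctgcctctgagCACGTGtcctgctggact
*Tac1*, chr6:7554988-7555017, plus strand: tggggagagtgtCACGTGgctctacaggct
*Cartpt*, chr13:99900777-99900806, minus strand: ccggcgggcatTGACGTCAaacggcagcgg

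Counted from the RefSeq start, the first base of the E-box lay at -57 in *Nmu*, -66 in *Cck* and -61 in *Tac1*, and that of the element of *Cartpt* at -112. In GENCODE M21 the 30 printed bases of *Nmu* and *Cck* lie outside any transcript, while those of *Tac1* and *Cartpt* lie in an untranslated region of an exon of 1 transcript each (Tac1-205 and Cartpt-202). The 3 genes with this match had different profiles, with the highest mean at ZT6 for *Nmu* and *Cck* and at ZT14 for *Tac1*. The shorter form TGACG, on either strand and counted also inside the full element, lay in windows of *Nmu*, *Cck*, *Nts*, *Tac1*, *Cartpt* and *Adcyap1* and in 20.8% of all windows. The AP-1 site TGACTCA, on either strand, lay in those of *Nms*, *Nmu* and *Nts* and in 5.20% of all windows. The D-box words TTATGTAA and TTATGCAA, on either strand, were not in these letters of any member's window and lay in 1.66% of all windows.

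The receptors of these peptides formed a list of 17 genes, of which 16 were tested and 8 changed with time (44.0% of all genes did). *Tacr2* had reads in 4 replicates and was not tested. Per length, *Vipr2*, the VIP receptor that also binds PACAP, was the highest of the list at 56.4 CPM per kb, ahead of *Ntsr2*, a neurotensin receptor known from astrocytes, at 48.4, *Adcyap1r1*, the PACAP receptor, at 24.1 and *Sort1*, the sorting receptor that also binds neurotensin, at 13.1. *Grpr*, the receptor of gastrin-releasing peptide, stood at 6.08 CPM per kb, *Cckbr* at 2.79, the kappa receptor gene *Oprk1* at 1.86 and the substance P receptor gene *Tacr1* at 1.05. The neuromedin receptors were close to the detection limit, with *Nmur2* the higher at 0.153 CPM per kb and no read in 7 replicates, while *Nmur1* had no read in 11.

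*Grpr* changed with time (adjusted p = 0.0270) in an order unlike that of its ligand. Its mean was 25.3 ± 6.56 CPM at ZT2 and 23.4 ± 3.57 CPM at ZT22, the timepoints at which *Grp* was lowest, and 9.72 ± 2.26 CPM at ZT6, where *Grp* was highest. The replicates of ZT22 and ZT2 lay above those of every other timepoint. *Adcyap1r1* also changed with time (adjusted p = 0.000125), from 237 ± 52.0 CPM at ZT2 to 97.8 ± 23.6 CPM at ZT6, and *Adcyap1* itself was low at ZT2 and ZT22. The order was not opposite throughout. At ZT14 *Adcyap1r1* was at 177 ± 17.4 CPM, beside 101 ± 14.4 CPM at ZT10, while *Adcyap1* was at 12.9 ± 2.80 CPM, near its highest mean. *Vipr2* ranged from 183 ± 8.78 CPM at ZT10 to 329 ± 4.69 CPM at ZT18 (adjusted p = 0.0242). *Ntsr2* was higher by day, at 193 ± 11.9 CPM at ZT10 and 116 ± 8.90 CPM at ZT14 (adjusted p for time = 0.00332), and *Sort1* ranged from 49.4 ± 7.99 CPM at ZT6 to 164 ± 48.9 CPM at ZT22 (adjusted p = 3.11e-06). The 6 astrocyte markers had summed levels of 4067 to 5235 CPM at ZT2 and 1640 to 2008 CPM at ZT10, and their part in *Ntsr2* was not tested. *Cckbr* was at 24.8 ± 3.89 CPM at ZT14, with all 3 replicates above those of other timepoints, and at 3.03 ± 1.12 CPM at ZT2 (adjusted p = 0.00273). The replicates of ZT14 were at 29.3, 23.2 and 22.1 CPM. In all of them the median log2 level over each gene's own median was raised for telencephalic and oligodendrocyte markers. It was 0.57 to 1.53 for the former and 0.84 to 1.18 for the latter. At ZT22 that of the telencephalic markers was -0.08, 1.40 and 0.89 in replicates A, B and C, with *Cckbr* at 9.1, 4.67 and 3.76 CPM. The part of these markers in *Cckbr* was not tested. The opioid receptor genes *Oprd1* and *Oprm1* passed the test (adjusted p = 0.0309 and 0.0473) on few reads, a median of 5 and 11 per replicate, with means of 1.49 ± 1.07 and 1.75 ± 1.02 CPM at ZT14 and no read in any replicate of ZT6, which allows up to 0.142 CPM per replicate. Without the libraries high in striatal markers 5 receptor genes changed with time (*Cckbr*, *Oprd1* and *Oprm1* did not pass), and without those high in telencephalic markers 5 did (*Grpr*, *Oprd1* and *Oprm1* did not pass).

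Of the 15 genes that process and store peptides, 14 changed with time, where 44.0% of all genes did. The exception was *Pcsk2*, a prohormone convertase, with means between 346 ± 14.1 and 484 ± 49.6 CPM (adjusted p = 0.288). From ZT2 to ZT6 10 of the 15 differed, where 33.8% of all genes did. From ZT10 to ZT14 it was 7 (16.8%) and from ZT18 to ZT22 it was 10 (18.1%). These steps cross clusters of libraries, where the timepoint and a batch cannot be told apart. Within clusters, 0 differed from ZT6 to ZT10 (0.0475% of all genes) and 0 from ZT22 to ZT2 (0.0317%). From ZT14 to ZT18 it was 1, *Vgf* (0.570%). In the contrast of day with night 9 of the 15 differed, all of them higher by day, where 9.56% of all genes were higher and 14.3% lower, and the list's median difference was 0.32 on the log2 scale beside -0.13 over all genes tested. Among these, *Pcsk1n* and *Chga* had wider ranges than any member (the widest, that of *Nmu*, was 18.6-fold). *Pcsk1n*, an inhibitor of prohormone convertase, ranged 31.7-fold, from 6.49 ± 0.83 CPM at ZT2 to 205 ± 10.4 CPM at ZT6 (adjusted p = 3.09e-12), and the vesicle protein gene *Chga* ranged 26.9-fold, from 24.5 ± 7.36 CPM at ZT22 to 659 ± 173 CPM at ZT10 (adjusted p = 2.77e-08). *Vgf*, a precursor of secreted peptides, was at 200 ± 21.9 CPM at ZT6 and 22.7 ± 6.28 CPM at ZT22, and *Pam*, which amidates the end of many peptides including GRP and the neuromedins, was at 653 ± 204 CPM at ZT6 and 104 ± 34.5 CPM at ZT22. These 4 genes had their highest means at ZT6 and ZT10, as *Grp* did. The highest mean was at ZT2 instead in *Scg2*, a granin, at 7931 ± 2004 CPM beside 3518 ± 194 CPM at ZT6, and in *Pcsk1*, the other main prohormone convertase, at 115 ± 41.4 CPM at ZT2 and 27.1 CPM at ZT18.

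The vesicle genes *Ptprn* and *Chgb* were highest at ZT14, at 439 ± 39.7 and 578 ± 90.7 CPM, and *Scg3* at ZT10, at 301 ± 18.0 CPM, and all of them were lowest at ZT2. *Cadps*, *Cadps2* (both priming factors of dense-core vesicles) and *Ptprn2* were lowest at ZT14 or ZT18, with means of 84.2 ± 2.82 CPM at ZT18, 119 ± 20.6 CPM at ZT14 and 78.1 ± 3.26 CPM at ZT18. *Cpe*, the carboxypeptidase that trims cut peptides, and *Scg5*, a chaperone of PCSK2, changed least among the 14, by 1.49-fold and 1.47-fold between their highest and lowest means.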

How the data were processed

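SCN tissue was laser-captured, its RNA amplified with the SMARTer kit, and the libraries sequenced as 100-base read pairs on 3 lanes per replicate. Per the labels and the methods, trimmed reads were mapped to mm10 by GSNAP, and HTSeq 0.5.4p1 gave read counts on Ensembl genes plus their lincRNAs. The main table deposited by the authors holds read counts per gene, not normalized, with the lanes of a replicate combined (54 samples, 18 columns, 0 columns unused). Its header names stand 1 place to the left of the values and were read in that order of names. The second table deposited by the authors holds normalized signal, the counts divided by size factors of DESeq2. Of its values 100% were whole reads within 0.1 in every column, and the recovered reads served as an alternative, which called 9367 of 20822 genes for time. They equal the counts for most genes except at ZT6 and ZT10, where the median log2 ratio was between -0.13 and -0.11.

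The 18941 genes seen with 1 or more reads in over 6 replicates were fitted together with edgeR 4.0.16 (quasi-likelihood, TMM, R 4.3.3), 1 coefficient per timepoint, with p adjusted after Benjamini and Hochberg and called below 0.05. Replicates are separate pools of mice. JTK_CYCLE was written anew (period 24 hr, 6 possible lags, exact null distributions) with a Bonferroni factor of 6. DESeq2 1.42.0 and limma 3.58.1 (cosinor) were alternatives. Statistics were tested on simulated data. Symbols, exon lengths and positions come from GENCODE M21 (GRCm38), which named 97.2% of identifiers. All members are named, as are the receptors and processing genes that changed with time, the highest receptor per length for each peptide, and the 3 genes most like each changing member. The members and lists were chosen with earlier results of these data known.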

Additional observations from a re-analysis of the deposited data

How the results depend on the processing

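The counts of members changed with time, cycling, and different between ZT6 and ZT10 or ZT22 and ZT2 kept within 1.5 times of their value under every alternative, and the other 5 counts did not. With all libraries kept, 6 to 8 members changed with time and 5 or 6 cycled. DESeq2 called 4 members between ZT18 and ZT22 in place of 2 and 1 between ZT14 and ZT18 in place of 0 (*Nms*). The replicate letters were added as a block, which gave 1 member (*Nms*) between ZT14 and ZT18. Over 45 pairs of libraries with the same letter the median correlation of deviations was -0.00298 and 1 pair exceeded 0.1. Of the 18 libraries, 6 correlated best with their own letter. No deviation shared by letter was thus seen over the genes as a whole, and whether a letter stands for shared handling was not tested. The block changed the count over time to 8 members and between day and night to 5. Without the 2 libraries high in striatal markers, a choice made after seeing the data, 2 members differed between day and night in place of 4, 2 between ZT10 and ZT14 in place of 5, and 5 receptor genes changed with time in place of 8. Without the 2 high in telencephalic markers, also chosen after seeing the data, 5 receptor genes did. Leaving out 1 library at a time gave 5 to 8 members changed with time, 5 or 6 cycling, 4 to 6 different between day and night, 2 to 6 between ZT2 and ZT6, 2 to 6 between ZT10 and ZT14, 0 or 1 between ZT14 and ZT18, 1 to 3 between ZT18 and ZT22, 0 in the other steps, 6 to 8 receptor genes and 14 processing genes. The count between ZT10 and ZT14 was 2 without ZT14 replicate A or B and 3 without ZT10 replicate B. The count between ZT2 and ZT6 was 3 without ZT2 replicate A and 2 without ZT2 replicate B, that between ZT18 and ZT22 was 1 without ZT22 replicate B or C, and that between ZT14 and ZT18 was 1 without ZT6 replicate C. *Cck* missed the test for time in 6 of these 18 fits, with an adjusted p of up to 0.0853. Of the members that did not pass for time, *Nts* passed in 7, *Tac1* in 6, *Cartpt* in 4 and *Pdyn* in 1 of 27 alternatives, and with 1 library left out the adjusted p of *Tac1* lay between 0.00144 and 0.163. Between day and night, *Penk* passed in 5 and *Pdyn* in 3 of them. The difference of *Cartpt* between day and night, which did not pass the test, was -0.25 on the log2 scale, ranged from -0.46 to 0.20 when 1 library was left out, and turned to 0.20 without ZT22 replicate A. The cause of these shifts was not tested. Over all genes, DESeq2 called 252 between ZT6 and ZT10, 844 between ZT14 and ZT18 and 34 between ZT22 and ZT2, where edgeR called 9, 108 and 6. Between ZT10 and ZT14 edgeR called 3189 genes, but 1993 without ZT10 replicate B, 2027 without ZT14 replicate A and 903 without the libraries high in striatal markers. Between ZT18 and ZT22 it called 3435, but 2138 and 2097 without ZT22 replicates B and C. Without the libraries high in telencephalic markers these 2 counts were 1947 and 1902. With 1 library left out it called 2 to 50 genes between ZT6 and ZT10, 0 to 225 between ZT14 and ZT18 and 1 to 17 between ZT22 and ZT2. Between day and night it called 4517, but 2916 without the libraries high in striatal markers. Depth limits *Nmu*, *Nmur1*, *Nmur2*, *Oprd1* and *Oprm1*, which had few reads.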
